A study of Mus musculus with 16 samples.

Results

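The thick ascending limb genes described here are 8 of the 22180 genes measured on 16 arrays of mouse kidney cortex. They are Slc12a1, Kcnj1, Bsnd, Casr, Ptger3, Umod, Egf and Wfdc15b. Each was chosen by name, and each has 1 probe set annotated to it alone, so the rule of taking the probe set of highest mean left no choice to make. A further probe set shared by Egf and another gene was not used.

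The thick ascending limb is the segment of the nephron that takes up salt without water and so dilutes the tubular fluid. Sodium, potassium and chloride enter its cells from the lumen through one cotransporter, potassium returns to the lumen through a channel, and chloride leaves on the blood side through channels that need the subunit barttin. This transport sets up a voltage that pulls calcium, magnesium and sodium between the cells through claudin pores, and receptors for calcium and for prostaglandin restrain it. The segment also secretes uromodulin, the most abundant protein of normal urine.

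The arrays fall into 4 groups of 4, all from kidney cortex of 3-month-old mice on a normal diet. Wild-type mice were C57BL/6. Vhl mutants carried floxed Vhl with Ksp-Cre (Vhl F/F;Ksp), Pbrm1 mutants floxed Pbrm1 with Ksp-Cre (Pbrm1 F/F;Ksp), and double mutants both floxed genes with Ksp-Cre (Vhl F/F;Pbrm1 F/F;Ksp). All mutants were on a mixed background of C57BL/6, BALB/c and 129, so every comparison with wild type also compares strains. Ksp-Cre is driven by the promoter of Cdh16, a cadherin of tubule epithelium, and is known to act in the distal nephron, the thick ascending limb included. The Vhl product recognises hypoxia-inducible factors so that they are degraded, and that of Pbrm1 belongs to the PBAF chromatin remodeler. The stated aim of the series was to find early transcriptional events relevant to clear cell renal cell carcinoma.

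Each group holds 2 description numbers, which may mark animals, and double mutant replicates 2 and 3 have the same description. After centring on group means, these 2 arrays had r = -0.515 over genes, the lowest of all array pairs. For replicates 3 and 4, of different numbers, r was -0.07, and for replicates 1 and 2 it was 0.011. Whether the description of replicate 3 is right was not tested, and the block and the averages per number rest on it. The numbers of the Vhl mutants are higher than all others, and a batch they might mark cannot be told apart from genotype. The descriptions also hold a letter, L or R, which may mark the side of the kidney. Within groups, deviations from group means had a median r of -0.174 over 9 same-number pairs and -0.425 over 15 other pairs. The labels do not name the animals behind the 4 arrays of a group. The p-values therefore measure array-to-array spread, with 1 correlation allowed within a number, and not a known spread between animals. Part of the array-to-array spread may be technical. The probe sets of the deleted genes lay between 6.08 and 6.55 for Vhl and between 8.02 and 8.33 for Pbrm1 over the 16 arrays, and neither was called different in any comparison, so they do not check the genotype labels. The median SE of a log2 fold change in Vhl mutants against wild type was 0.11. Markers of fat stood apart (list median raised by over 0.5 on the log2 scale) in double mutant replicate 3, Pbrm1 mutant replicate 3 and Vhl mutant replicate 2. The 12 proximal tubule markers, the main cells of cortex, had array medians within 0.15 of the wild-type mean in all 16 arrays, but single markers moved: 0 of 12 were called in Vhl mutants, 4 rose in Pbrm1 mutants, and 1 rose (Slc5a12) and 2 fell (Slc5a2 and Slc34a1) in double mutants. Over all genes 1.59% rose in Pbrm1 mutants, and 6.64% rose and 5.56% fell in double mutants.

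Levels are log2 expression values and differences are log2 fold changes ± SE from limma, and a gene counts as called when its p, adjusted by Benjamini-Hochberg over all 22180 genes, is under 0.05. In bulk tissue, fewer thick ascending limb cells and less RNA per cell cannot be told apart. The 3 comparisons with wild type share the same 4 wild-type arrays.

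The 8 genes did not move as a block. In Vhl mutants 4 of 8 fell and 0 rose, namely Wfdc15b, Bsnd, Casr and Slc12a1. In double mutants 5 of 8 fell, namely Bsnd, Kcnj1, Wfdc15b, Casr and Egf, while Ptger3 and Umod rose. Without double mutant replicate 4, 1 rose and 3 fell, 4 of 8 in all. In Pbrm1 mutants 0 of 8 passed the test, and 1 did without Pbrm1 mutant replicate 2. The share of all genes called was 1.79% down and 2.04% up in Vhl mutants, 5.56% down and 6.64% up in double mutants, and 4.04% in either direction in Pbrm1 mutants (1.59% up and 2.45% down). The median change of the 8 genes was -0.24 for Vhl, -0.10 for Pbrm1 and -0.28 for double mutants, beside -0.01, -0.01 and -0.02 over all genes.

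**Figure D1:**
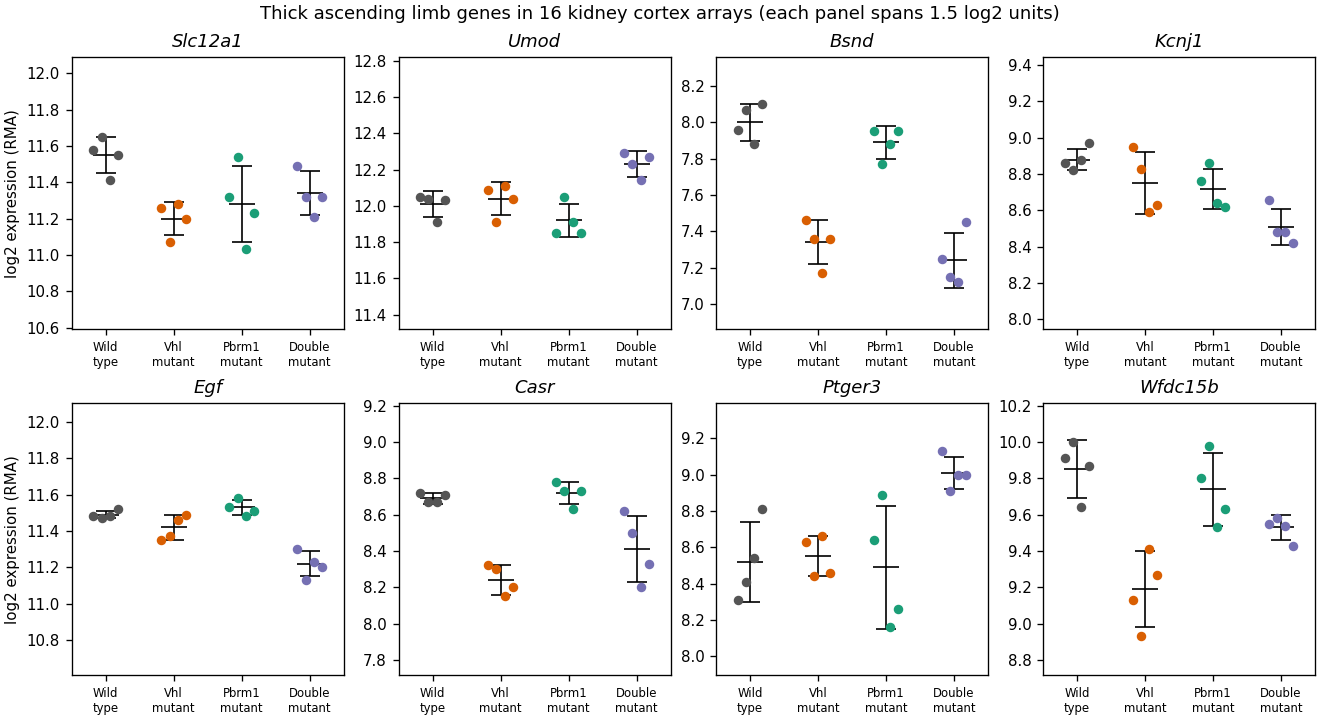
Log2 expression of the 8 thick ascending limb genes by group; each point is 1 array, and the bars give the mean ± SD of 4 arrays. Each panel has its own range but the same span of 1.5 log2 units. Bsnd lies lower in Vhl and double mutants than in the other groups, Umod and Ptger3 lie highest in double mutants, and Wfdc15b lies lowest in Vhl mutants.

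Slc12a1 encodes the cotransporter of sodium, potassium and chloride at the luminal membrane, the entry step of salt transport (probe set 17375608). Its log2 level was 11.58, 11.65, 11.41 and 11.55 in wild-type replicates 1 to 4, and 11.26, 11.07, 11.28 and 11.20 in Vhl mutants. It was 11.32, 11.54, 11.03 and 11.23 in Pbrm1 mutants and 11.49, 11.32, 11.21 and 11.32 in double mutants. All 4 Vhl mutant arrays lay below all 4 wild-type arrays, whereas the Pbrm1 and double mutant arrays overlapped the wild-type range. The fall in Vhl mutants was -0.35 ± 0.09 (1.27-fold, adjusted p = 0.031). This call was lost under 12 of 23 alternatives (adjusted p up to 0.26), averaging arrays per description number among them. It was also lost when any of wild-type replicates 1, 2 or 4 or Vhl mutant replicates 2 or 4 was left out. The differences of -0.27 ± 0.09 in Pbrm1 mutants (adjusted p = 0.10) and -0.21 ± 0.09 in double mutants (adjusted p = 0.14) did not pass. Without Pbrm1 mutant replicate 2, the highest of its group, Slc12a1 passed in Pbrm1 mutants at -0.35 (adjusted p = 0.019).

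Kcnj1 encodes ROMK, the potassium channel that returns potassium to the lumen and that principal cells and the distal convoluted tubule also express (probe set 17515813). Wild-type arrays measured 8.86, 8.82, 8.88 and 8.97, and double mutant arrays 8.66, 8.48, 8.48 and 8.42, so that every double mutant array lay below every wild-type array. The fall in double mutants was -0.37 ± 0.08 (1.30-fold, adjusted p = 0.0038), and it passed under every alternative tried. Vhl mutants measured 8.95, 8.83, 8.59 and 8.63, and Pbrm1 mutants 8.76, 8.86, 8.64 and 8.62. In both single-mutant groups replicates 3 and 4, which share a description number, lay below replicates 1 and 2. Their differences from wild type, -0.13 ± 0.08 in Vhl mutants (adjusted p = 0.47) and -0.16 ± 0.08 in Pbrm1 mutants (adjusted p = 0.34), did not pass.

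Bsnd encodes barttin, the subunit that the ClC-K chloride channels need, and is known to be expressed in the thick ascending limb, the distal convoluted tubule and intercalated cells (probe set 17427784). Its wild-type arrays measured 7.96, 8.07, 7.88 and 8.10 and its Pbrm1 mutant arrays 7.95, 7.77, 7.88 and 7.95. Vhl mutant arrays measured 7.46, 7.36, 7.17 and 7.36, and double mutant arrays 7.25, 7.15, 7.12 and 7.45. The 8 arrays of the groups with floxed Vhl all lay below the 8 arrays of the groups without it. Against wild type the fall was -0.66 ± 0.09 in Vhl mutants (1.58-fold, adjusted p = 0.00011) and -0.75 ± 0.09 in double mutants (1.68-fold, adjusted p = 4.2e-06). Double and Vhl mutants differed by -0.09 ± 0.09 (95% interval -0.27 to 0.09, adjusted p = 0.66), and Pbrm1 mutants differed from wild type by -0.11 ± 0.09 (adjusted p = 0.60).

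Casr encodes the calcium-sensing receptor of the blood side, which lowers salt and calcium uptake when blood calcium is high (probe set 17330188). Wild-type arrays lay close together at 8.72, 8.67, 8.67 and 8.71, and Pbrm1 mutant arrays at 8.78, 8.73, 8.63 and 8.73. Vhl mutants were lower at 8.32, 8.30, 8.15 and 8.20, and double mutants spread more widely at 8.62, 8.50, 8.20 and 8.33. No array of either group reached the wild-type range. The fall was -0.45 ± 0.08 in Vhl mutants (1.37-fold, adjusted p = 0.0018) and -0.29 ± 0.08 in double mutants (1.22-fold, adjusted p = 0.019). The double mutant call was lost without double mutant replicate 3 or without replicate 4 (adjusted p up to 0.081 over all alternatives), the first of these being an array of raised fat markers.

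Ptger3 encodes the prostaglandin E2 receptor EP3, which lowers cyclic AMP and salt transport in the segment (probe set 17403866). Double mutant arrays measured 9.13, 8.91, 9.0 and 9.0 and were the highest 4 of the 16. Wild-type arrays measured 8.31, 8.41, 8.54 and 8.81, Vhl mutants 8.63, 8.44, 8.66 and 8.46, and Pbrm1 mutants 8.64, 8.89, 8.16 and 8.26. The Pbrm1 mutant arrays split by description number, with replicates 1 and 2 above replicates 3 and 4. The rise in double mutants was 0.49 ± 0.13 against wild type (1.41-fold, adjusted p = 0.015), 0.47 ± 0.13 against Vhl mutants (adjusted p = 0.035) and 0.52 ± 0.13 against Pbrm1 mutants (adjusted p = 0.011). Each of these calls was lost with arrays averaged per description number. The call against wild type was lost without wild-type replicate 1, the lowest of its group, and the call against Vhl mutants was lost under 14 of 23 alternatives (adjusted p up to 0.42), among them leaving out any of double mutant replicates 1, 3 or 4 or Vhl mutant replicates 2 or 4.

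Umod encodes uromodulin, the glycoprotein that thick ascending limb cells secrete into urine (probe set 17495637). Double mutants were again the highest 4 of 16 arrays, at 12.29, 12.23, 12.14 and 12.27. Wild-type arrays measured 12.05, 12.04, 11.91 and 12.03, Vhl mutants 12.09, 11.91, 12.11 and 12.04, and Pbrm1 mutants 11.85, 12.05, 11.91 and 11.85, and these 3 groups overlapped. The rise in double mutants was 0.22 ± 0.06 against wild type (1.17-fold, adjusted p = 0.015) and 0.32 ± 0.06 against Pbrm1 mutants (1.24-fold, adjusted p = 0.00096). Against Vhl mutants the groups did not overlap, but the difference of 0.20 ± 0.06 had an adjusted p of 0.053. The call against wild type was lost under 8 of 23 alternatives, averaging arrays per description number among them. It was also lost without wild-type replicate 3, the lowest of its group, or without double mutant replicate 4. The call against Pbrm1 mutants passed under every alternative tried.

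Egf encodes the precursor of epidermal growth factor, made by the thick ascending limb and the distal convoluted tubule (probe set 17410275). Its wild-type arrays measured 11.48, 11.47, 11.48 and 11.52, the narrowest spread of the 8 genes in that group. Double mutants, at 11.30, 11.13, 11.23 and 11.20, lay below every other array. Vhl mutants at 11.35, 11.37, 11.46 and 11.49 and Pbrm1 mutants at 11.53, 11.58, 11.48 and 11.51 overlapped the wild-type range. The fall in double mutants was -0.27 ± 0.05 against wild type (1.21-fold, adjusted p = 0.00068), -0.20 ± 0.05 against Vhl mutants (1.15-fold, adjusted p = 0.015) and -0.31 ± 0.05 against Pbrm1 mutants (1.24-fold, adjusted p = 0.00018). The calls against wild type and Pbrm1 mutants passed under every alternative. The call against Vhl mutants was lost under 5 of 23 alternatives. Among them were averaging arrays per description number and leaving out the 3 arrays of raised fat markers (adjusted p = 0.054).

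Wfdc15b encodes a small secreted protein with a whey acidic protein domain (probe set 17394126). Vhl mutants were lowest, at 9.13, 8.93, 9.41 and 9.27, and double mutants lay at 9.55, 9.58, 9.54 and 9.43, above all Vhl mutant arrays and below all wild-type arrays. Wild-type arrays measured 9.91, 10 (rounded to 2 decimals), 9.64 and 9.87, and Pbrm1 mutant arrays 9.80, 9.98, 9.53 and 9.63. The fall in Vhl mutants was -0.67 ± 0.10 (1.59-fold, adjusted p = 0.00058). In double mutants it was -0.33 ± 0.10 (1.26-fold, adjusted p = 0.040), and that call was lost under 13 of 23 alternatives (adjusted p up to 0.29), including the omission of any 1 double mutant array or of wild-type replicate 1, 2 or 4. Double mutants exceeded Vhl mutants by 0.33 ± 0.10 (adjusted p = 0.061).

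**Figure D2:**
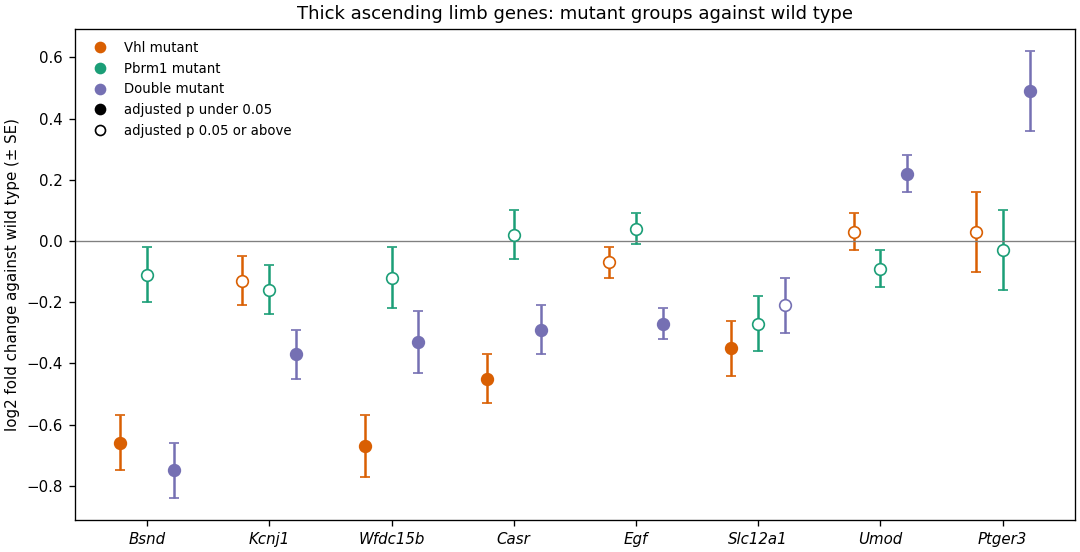
Log2 fold change (y axis) ± SE against wild type for the 8 genes, ordered by the double mutant change; filled points have a limma adjusted p under 0.05. The double mutant changes run from -0.75 for Bsnd to 0.49 for Ptger3, and all Pbrm1 mutant points are open.

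In 4 of 8 genes the Vhl mutant arrays lay wholly below the wild-type arrays, beside 5.71% of all genes. In double mutants 5 of 8 lay wholly below and 2 wholly above wild type, beside 8.53% and 9.21% of all genes.

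Between the mutant groups, 1 of 8 genes was higher (Ptger3) and 1 lower (Egf) in double than in Vhl mutants, beside 3.8% and 2.55% of all genes. With the 3 arrays of raised fat markers left out, 0 of 8 were called there, and the count was 5 without Vhl mutant replicate 3 and 1 without Vhl mutant replicate 2 or 4 or double mutant replicate 4. Against Pbrm1 mutants, double mutants had 2 of 8 higher (Ptger3 and Umod, beside 6.82% of all genes) and 3 of 8 lower (Bsnd, Egf and Casr, beside 3.37%). The Casr call was lost without double mutant replicate 4 (-0.28, adjusted p = 0.055), and the Ptger3 call with the 3 arrays of raised fat markers left out (0.43, adjusted p = 0.085). Averaging arrays per description number also ended the Ptger3 call. Vhl mutants had 3 of 8 lower than Pbrm1 mutants, beside 2.75% of all genes. These were Bsnd (-0.55 ± 0.09, adjusted p = 0.00020), Casr (-0.47 ± 0.08, adjusted p = 0.00037) and Wfdc15b (-0.55 ± 0.10, adjusted p = 0.0014). The 3 Vhl against Pbrm1 calls passed under every alternative tried.

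The interaction is the double mutant change minus the sum of both single-mutant changes. It was called by limma in 0 of 8 genes, beside 2.63% of all genes. In 5 of 8 the unadjusted limma p was under 0.05. The share of all genes at that unadjusted level was not computed, so that count has no baseline. The sizes of largest magnitude were 0.49 ± 0.18 for Ptger3 (adjusted p = 0.18), 0.45 ± 0.15 for Wfdc15b (adjusted p = 0.11) and 0.40 ± 0.13 for Slc12a1 (adjusted p = 0.097). Umod at 0.29 ± 0.08 and Egf at -0.24 ± 0.07 had adjusted p values of 0.068 and 0.067. For Bsnd the value was 0.03 ± 0.12 (95% interval -0.23 to 0.28). For Pbrm1 mutants against wild type, where 0 of 8 were called, 1 of 8 (Slc12a1) had an unadjusted p under 0.05, likewise without a baseline.

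Slc12a1 and Wfdc15b rose and fell together from array to array within groups as well as between them. Over the 16 arrays Pearson's r was 0.77 and Spearman's rho 0.79, r was 0.81 without the 2 arrays of most extreme Slc12a1, and it was 0.80 after each group was centred on its mean. Umod and Bsnd had r = -0.63 over the 16 arrays and 0.00 after centring, so that their opposite course lay between the groups. Over all 28 pairs of the 8 genes, r after centring ran from -0.29 to 0.80, with a median of 0.29. These are descriptions over arrays that were normalised together and may share animals.

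**Figure D3:**
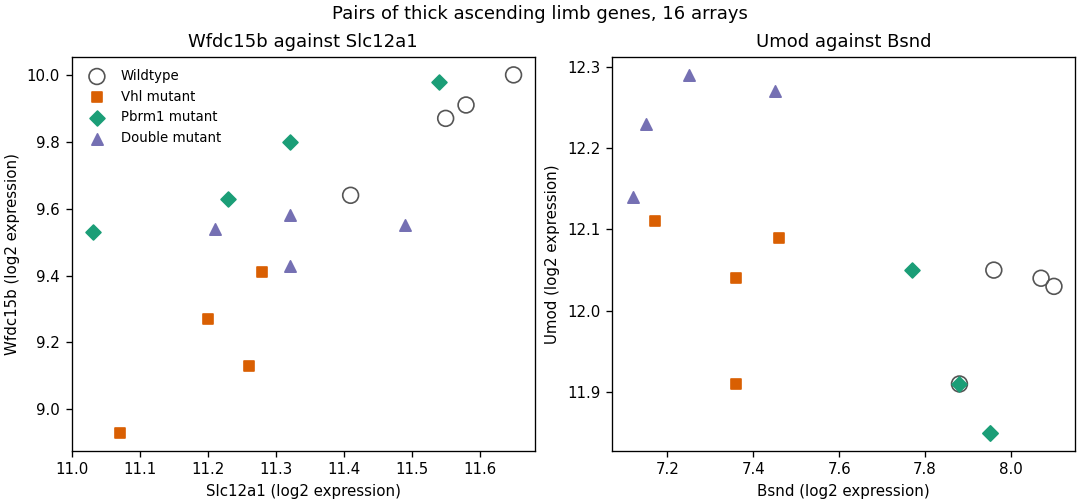
Log2 expression of Wfdc15b against Slc12a1 (left) and of Umod against Bsnd (right); each symbol is 1 of 16 arrays, with shape and colour giving the group. Some symbols coincide at the right: Pbrm1 mutant replicates 1 and 4 at 7.95 and 11.85, and wild-type replicate 3 with Pbrm1 mutant replicate 3 at 7.88 and 11.91. Wfdc15b and Slc12a1 rise together, and in the right panel the double mutants sit at low Bsnd and high Umod.

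RefSeq promoter windows on GRCm38.p6, from 250 bases before to 50 after a start site, were held for 7 of the 8 genes (8 windows). They were searched on both strands for 2 short motifs chosen with the results known. The hypoxia response core, ACGTG or GCGTG, was found in the windows of Slc12a1, Wfdc15b, Egf, Ptger3 and Kcnj1 and in 43.8% of all 32851 windows. The estrogen-related receptor half-site AAGGTCA was found in the Wfdc15b window and in 4.72% of all windows, and the matches of both motifs did not overlap in the windows of the 8 genes. The stretches of Wfdc15b, which fell most in Vhl mutants, and of Ptger3, which rose most in double mutants, are printed to show both motifs in place. Capitals mark the motif, which in Ptger3 lies on the opposite strand.
Wfdc15b (chr2:164221841-164221897, minus strand, motif at -209 from the start site): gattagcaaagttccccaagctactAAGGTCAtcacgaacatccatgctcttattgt
Ptger3 (chr3:157566629-157566683, plus strand, motif at -222): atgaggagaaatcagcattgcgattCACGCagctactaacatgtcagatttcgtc

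The windows of Slc12a1, Kcnj1, Ptger3 and Casr and 1 of the 2 Egf windows lie at a start site inside the gene's annotated span. Both Egf matches were in that inner window, and the window at the start of the Egf span held 0. A match describes the letters and is not evidence of binding.

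Of 14 further transport genes of the segment, 11 were measured. Against wild type, 1 of the 4 claudins among them rose in double mutants (Cldn16), 1 fell (Cldn10) and 2 did not pass (Cldn19 and Cldn14). In this segment Cldn16 and Cldn19 encode the claudins of the calcium and magnesium pore, and Cldn10 that of the sodium pore. Which cells of the cortex gave the values of these further genes was not tested. Cldn16 measured 7.13, 7.27, 6.82 and 6.72 in wild type and 7.86, 7.73, 7.52 and 7.98 in double mutants. It measured 6.33, 6.37, 6.73 and 7.03 in Vhl mutants and 7.68, 7.59, 7.39 and 7.34 in Pbrm1 mutants, so both groups with floxed Pbrm1 lay above all wild-type and Vhl mutant arrays. The rise in double mutants was 0.80 ± 0.15 against wild type (1.74-fold, adjusted p = 0.00098) and 1.16 ± 0.15 against Vhl mutants (2.24-fold, adjusted p = 3.6e-05). Pbrm1 mutants differed from wild type by 0.52 ± 0.15 (adjusted p = 0.055), and Vhl mutants were lower than Pbrm1 mutants by -0.89 ± 0.15 (adjusted p = 0.00044). The 3 called Cldn16 differences passed under every alternative tried.

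Cldn19 measured 7.89, 7.98, 7.67 and 7.76 in wild type and 8.46, 8.13, 7.90 and 7.90 in double mutants, which overlapped (difference 0.26 ± 0.14, adjusted p = 0.28). Vhl mutants, at 7.73, 7.45, 7.21 and 7.37, did not overlap the double mutants. That second difference was 0.65 ± 0.14 (1.57-fold, adjusted p = 0.0054), and the Cldn19 interaction was 0.85 ± 0.19 (adjusted p = 0.021). Both Cldn19 calls were lost when arrays were averaged per description number (adjusted p up to 0.31 and 0.24 over their alternatives). The rise against Pbrm1 mutants of 0.46 ± 0.14 (adjusted p = 0.039) was lost under 13 of 23 alternatives, including the omission of any of double mutant replicates 1 or 2 or Pbrm1 mutant replicates 1, 3 or 4. Cldn10 fell in double mutants by -0.23 ± 0.07 against wild type (1.17-fold, adjusted p = 0.029), a call lost without wild-type replicate 1, 2 or 4 or double mutant replicate 4, and by -0.29 ± 0.07 against Pbrm1 mutants (adjusted p = 0.0057).

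Fxyd2, the gamma subunit of the sodium pump, fell in double mutants by -0.36 ± 0.06 against wild type (1.28-fold, adjusted p = 0.00023), -0.28 ± 0.06 against Vhl mutants (adjusted p = 0.0042) and -0.23 ± 0.06 against Pbrm1 mutants (adjusted p = 0.012). The Fxyd2 call against wild type passed under every alternative tried. Those against Vhl and Pbrm1 mutants were lost under 2 and 5 of 23 alternatives, averaging arrays per description number among both. Kcnj10, a potassium channel of the blood side, rose in Pbrm1 mutants by 0.44 ± 0.09 (1.36-fold, adjusted p = 0.0044), where its arrays measured 8.13, 8.18, 8.22 and 8.13 beside 7.67, 7.72, 7.59 and 7.91 in wild type. It was lower than in Pbrm1 mutants by -0.72 ± 0.09 in Vhl mutants (adjusted p = 1.2e-05) and by -0.47 ± 0.09 in double mutants (adjusted p = 0.00085). Slc9a3, a sodium-proton exchanger, was lower in Vhl than in Pbrm1 mutants by -0.30 ± 0.09 (adjusted p = 0.033), a call lost under 11 of 23 alternatives, among them the omission of Pbrm1 mutant replicate 1, 2 or 3 or Vhl mutant replicate 1 or 2. Of the 11 transport genes, 0 were called in Vhl mutants against wild type, 1 rose in Pbrm1 mutants, and 1 rose and 2 fell in double mutants, with medians of -0.20, 0.01 and -0.06. Over all genes 1.59% rose in Pbrm1 mutants, and 6.64% rose and 5.56% fell in double mutants.

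Of 16 regulators of the segment 15 were measured. In double mutants 6 of 15 fell and 0 rose against wild type, in Vhl mutants 4 fell and in Pbrm1 mutants 2 fell, with medians of -0.12, -0.14 and -0.12. The shares of all genes called lower were 5.56%, 1.79% and 2.45%. Tmem52b, a membrane protein of the distal nephron, fell by -0.47 ± 0.05 in double mutants (1.39-fold, adjusted p = 2.5e-06), from 11.77, 11.72, 11.85 and 11.80 in wild type to 11.31, 11.25, 11.36 and 11.34. It also fell by -0.26 ± 0.05 in Vhl mutants (adjusted p = 0.0057) and by -0.20 ± 0.05 in Pbrm1 mutants (adjusted p = 0.029), the last call being lost under 12 of 23 alternatives, wild-type replicates 1, 3 and 4 and Pbrm1 mutant replicates 2 and 3 among the arrays whose omission ended it.

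Ppp1r1a, an inhibitor of protein phosphatase 1 that acts when phosphorylated by protein kinase A, was lower in all 3 mutant groups, by -0.47 ± 0.10 in Vhl mutants (adjusted p = 0.012), -0.37 ± 0.10 in Pbrm1 mutants (adjusted p = 0.046) and -0.45 ± 0.10 in double mutants (adjusted p = 0.0055). Its Pbrm1 mutant call was lost under 13 of 23 alternatives, wild-type replicates 1, 2 and 4 and Pbrm1 mutant replicates 3 and 4 among the arrays whose omission ended it. Pth1r, the parathyroid hormone receptor, fell by -0.37 ± 0.06 in double mutants (1.30-fold, adjusted p = 0.00014). Wnk4 and Wnk1, kinases that govern the cation-chloride cotransporters, fell in Vhl mutants by -0.30 ± 0.07 (adjusted p = 0.025) and -0.21 ± 0.05 (adjusted p = 0.022). Both calls were lost without wild-type replicate 3 or Vhl mutant replicate 3, and that of Wnk4 also without wild-type replicate 4 or Vhl mutant replicate 1. Rragd, a GTPase of the mTORC1 pathway, fell by -0.28 ± 0.09 in double mutants (adjusted p = 0.042), a call lost under 12 of 23 alternatives, without wild-type replicate 2, 3 or 4 or double mutant replicate 2 or 3 among them.

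Relative to Vhl mutants, the double mutants had 2 of 15 regulators higher and 2 lower, beside 3.8% and 2.55% of all genes. Tmem207, a membrane protein, was higher by 0.57 ± 0.17 (adjusted p = 0.048) and Wnk4 by 0.27 ± 0.07 (adjusted p = 0.032), and Pth1r and Tmem52b were lower, each by -0.21. Leaving out 1 array ended each of these 4 calls. For Tmem207 this was any double mutant array or Vhl mutant replicate 2 or 4, and for Wnk4 double mutant replicate 1 or 3 or Vhl mutant replicate 1 or 3. For Pth1r it was double or Vhl mutant replicate 2, 3 or 4, and for Tmem52b replicate 2 of either group. Relative to Pbrm1 mutants the double mutants had 3 of 15 higher and 3 lower, beside 6.82% and 3.37% of all genes. The lower ones were Tmem52b (-0.27), Pth1r (-0.26) and Hpn (-0.16). The Hpn call was lost under 15 of 23 alternatives, among them the omission of any Pbrm1 mutant array or of double mutant replicate 2, 3 or 4, and that of Pth1r with the 3 arrays of raised fat markers left out (adjusted p = 0.063). Sorl1, a sorting receptor that acts on the luminal cotransporter, was higher by 0.35 ± 0.07 (1.27-fold, adjusted p = 0.0013), which passed under every alternative tried. Maged2, a protein needed for salt uptake before birth, was higher by 0.48 ± 0.12 (1.4-fold, adjusted p = 0.0095), and Stk39, the kinase SPAK, by 0.31 ± 0.10 (adjusted p = 0.043), the last lost under 12 of 23 alternatives, including the omission of double mutant replicate 1, 2 or 4 or Pbrm1 mutant replicate 1, 3 or 4. With the 3 arrays of raised fat markers left out Maged2 did not pass. The Sorl1 interaction was 0.38 ± 0.10 (adjusted p = 0.035), a call lost under 18 of 34 alternatives.

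Of 7 transcription factors 6 were measured, and 0 of 6 were called by limma against wild type in any mutant group. Irx1, a homeobox gene of the nephron, was higher in double than in Vhl mutants by 0.36 ± 0.10 (adjusted p = 0.037) and lower in Vhl than in Pbrm1 mutants by -0.40 ± 0.10 (adjusted p = 0.014). The first Irx1 call was lost under 13 of 23 alternatives, double mutant replicates 3 and 4 and Vhl mutant replicates 2 and 4 among the arrays whose omission ended it, and the second without Pbrm1 mutant replicate 1. Of the 2 macula densa genes, 0 were called in any comparison.

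**Figure D4:**
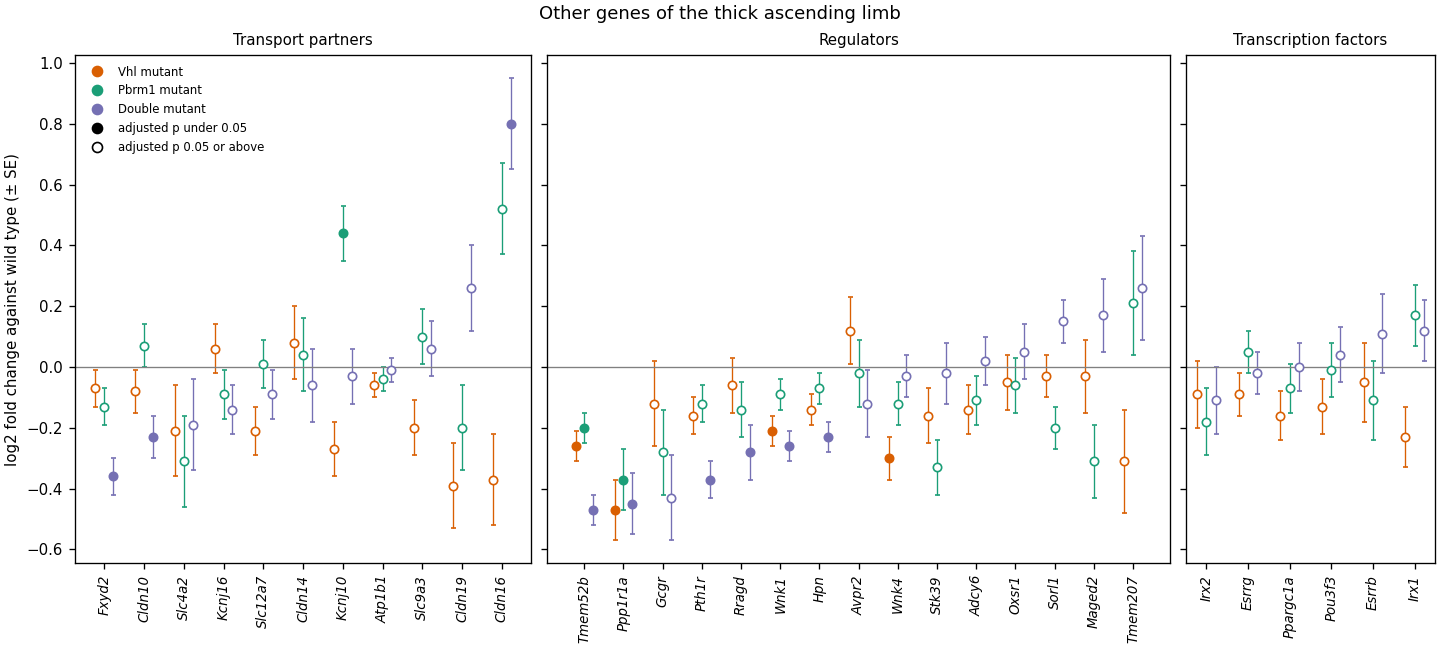
Log2 fold change (y axis) ± SE against wild type for the measured transport partners, regulators and transcription factors; filled points have a limma adjusted p under 0.05. Cldn16 in double mutants is the highest point at 0.80, and the filled regulator points all lie below 0.

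Genes of neighbouring segments also moved. For the marker counts here and in the next paragraph, the share of all genes called lower was 1.79% in Vhl, 2.45% in Pbrm1 and 5.56% in double mutants. The share called higher was 2.04%, 1.59% and 6.64%. Relative to each gene's wild-type mean, the median of the 8 thick ascending limb genes ran from -0.06 to 0.03 over wild-type arrays, -0.30 to -0.21 in Vhl mutants, -0.19 to 0.04 in Pbrm1 mutants and -0.33 to -0.13 in double mutants. The 8 intercalated cell markers ran from -0.35 to -0.07 in Pbrm1 mutants, with 2 of 8 called lower than wild type. They ran from -0.77 to -0.32 in Vhl mutants and -0.95 to -0.80 in double mutants, with 4 of 8 and 6 of 8 called lower. Among them Rhcg, an ammonia channel, fell by -0.74 ± 0.08 and -1.65 ± 0.08, and Slc26a4, an anion exchanger, by -0.86 ± 0.10 and -1.26 ± 0.10. The 6 distal convoluted tubule markers had medians of -0.23 to 0.23 in wild type and -0.28 to 0.04 in Vhl mutants, where 0 of 6 were called. The medians were -0.35 to -0.26 in Pbrm1 mutants and -0.60 to -0.47 in double mutants, with 2 and 4 of 6 called lower. The 6 principal cell markers had medians of -0.20 to 0.04 in Vhl mutants and -0.44 to -0.34 in double mutants, with 1 and 4 of 6 called lower. The part of these cells in the values of Bsnd, Kcnj1 and Egf, which they also express, was not tested.

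Cdh16 itself, whose promoter drives the Cre, fell by -0.22 ± 0.05 in Vhl mutants (adjusted p = 0.0082) and -0.33 ± 0.05 in double mutants (adjusted p = 5.4e-05), and differed by -0.06 ± 0.05 in Pbrm1 mutants (adjusted p = 0.59). Its Vhl mutant call was lost under 5 of 23 alternatives (adjusted p up to 0.18), averaging arrays per description number among them. Its double mutant call passed under every alternative tried. Tubular injury markers rose in the same groups as the falls of Bsnd and Casr, with 6 of 9 called up in Vhl mutants and 9 of 9 in double mutants. Their array medians were 0.66 to 0.96 in Vhl mutants, 1.18 to 1.43 in double mutants and -0.29 to -0.17 in Pbrm1 mutants. Macrophage markers had medians of 0.59 to 0.94 in Vhl mutants and 0.33 to 0.73 in double mutants, with 7 and 5 of 9 called up. Endothelial markers had 4 of 6 called up in both groups, and fibroblast markers 3 of 5 and 5 of 5. Of the 3 proximal tubule markers of the outer stripe, a zone where ascending limbs are dense, 1 fell in Vhl mutants (Slc7a13, -0.25 ± 0.05, adjusted p = 0.0095). In double mutants they moved both ways, with Slc7a13 (-0.23 ± 0.05, adjusted p = 0.0072) and Slc22a7 (-1.27 ± 0.34, adjusted p = 0.017) lower and Cyp7b1 higher (0.59 ± 0.15, adjusted p = 0.011). Of 5 medullary osmolyte and urea genes 3 were measured. Against wild type 1 of these was called lower in Vhl mutants (Slc14a2) and 1 higher in double mutants (Slc6a6). Their array medians were -0.11 to 0.09 in wild type, -0.04 to -0.01 in Vhl, -0.19 to 0.12 in Pbrm1 and 0.01 to 0.06 in double mutants. The part of injury, of other cells and of how deep the cortex was cut in the changes of the 8 genes was not tested.

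**Figure D5:**
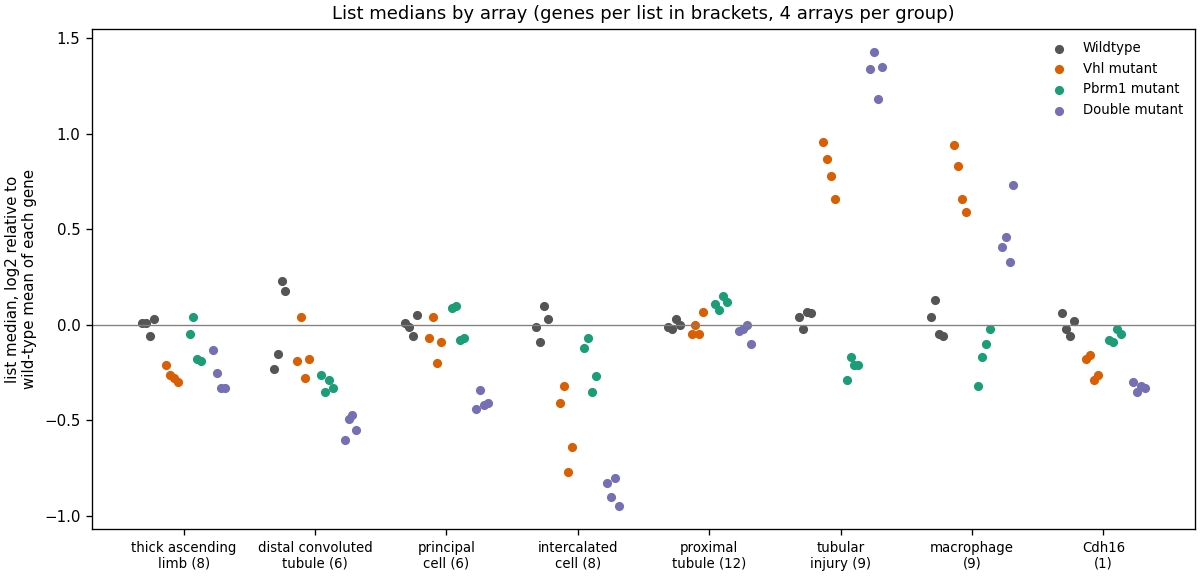
Median log2 level of each gene list relative to its wild-type means (y axis), with 1 point per array and 4 arrays per group. The thick ascending limb points of Vhl mutants lie between -0.30 and -0.21, the intercalated cell points of double mutants between -0.95 and -0.80, and the proximal tubule points of all groups within 0.15 of 0.

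Outside the 8 genes, the gene whose pattern over the 16 arrays was most like the mean of all 8 was Get4 (Pearson's r = 0.891), followed by Adsl and Phf5a (both 0.860), Tgfbrap1 (0.844), Pkp4 (0.842), Ppp1r1a (0.838), Ntn1 (0.836), Eral1 and Adcy5 (both 0.832) and Ap4s1 (0.826). For single genes the closest were Ror1 to Bsnd (0.945), Tc2n to Egf and Pdzrn3 to Casr (both 0.941), Spns2 to Umod (0.915), Tmco4 to Kcnj1 (0.896), Ppp1r1a to Slc12a1 and Rrp1b to Ptger3 (both 0.885), and Tut1 to Wfdc15b (0.876). These are the highest of 22180 values over the same arrays and are descriptions only.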

How the data were processed

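Total RNA from kidney cortex was hybridised to Affymetrix mouse arrays, 16 in all. Per the submitters' processing notes, the deposited log2 values were made by RMA (robust multi-array average) with version 1.4 of Affymetrix Expression Console. RMA sets all arrays to 1 distribution, so a change is relative to all probe sets. The array's genome build is not given in the sources used here. Of 41345 probe sets, 23521 are annotated to 1 symbol, 1814 to several and 16010 are not listed; the former gave 22180 genes, with the probe set of highest mean kept for 1082 genes with more than 1. Array medians over genes ran from 5.18 to 5.27, and 0 columns of values were left unused. The number of arrays limits the precision.

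limma 3.58.1 in R 4.3.3 was fitted to all 22180 genes with the 4 groups as fixed effects, the description number as a random block (duplicateCorrelation with statmod 1.5.0, estimated correlation 0.0838) and a prior variance following the mean (prior degrees of freedom 7.73, residual 12). The fit gives double mutant replicate 4, alone in its number as labelled, more weight, so fold changes differ slightly from differences of means. The 8 genes and all gene lists and motifs were chosen with earlier results of these data known. The 8 genes are given in full; of each pathway list up to 4 called genes of largest change per comparison are named, of each cell list up to 2. Likeness is Pearson's r over 16 arrays. Genes under 3.72, the highest lower quartile of an array, were to be given as levels only; none of the 8 genes was under it.

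Alternatives are given in the closing section. The model was tested on simulated data. Tables were prepared with pandas 2.3.3 and numpy 2.4.6 under Python 3.11.15, and figures with matplotlib 3.10.9.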

Additional observations from a re-analysis of the deposited data

Results flagged for a closer look

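Over the 8 genes and 4 groups, 32 sets of 4 arrays were examined for an array far from the others of its group, taking the gap between an outermost array and its nearest neighbour as a share of the group's whole range. In 1 set this share was above Dixon's 95% critical value, which chance passes in about 1 in 20 groups. Umod in wild-type replicate 3 measured 11.91, while the other 3 wild-type arrays lay between 12.03 and 12.05. Without that array the rise of Umod in double mutants against wild type was 0.19 (adjusted p = 0.053), and the interaction of Umod was 0.32 (adjusted p = 0.042).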

How the results depend on the processing

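Each of 1376 values (8 genes, 7 comparisons, 23 alternatives per pair of groups and 34 for the interaction) was recomputed with 1 choice changed. Of these, 1274 kept their side of the threshold, 70 were no longer called, 32 were newly called and 0 called values reversed. Values called in neither fit count among the 1274 even where their sign changed. Ptger3 in Pbrm1 mutants against wild type, for example, ran from -0.31 to 0.25. The falls of Bsnd, Casr and Wfdc15b in Vhl mutants against wild type and against Pbrm1 mutants, those of Bsnd, Kcnj1 and Egf in double mutants against wild type, and the changes of Umod and Egf in double against Pbrm1 mutants passed under all alternatives. Replicate numbers did not pair the arrays: deviations from group means correlated between -0.074 and 0.059 over the 24 same-numbered pairs of different groups. With the replicate number as a replicate block no call on the 8 genes changed; for Bsnd in double mutants against wild type this block gave -0.76, beside -0.75 without it.

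The number of the 8 genes called in Vhl mutants against wild type or against Pbrm1 mutants stayed within 1.5 times. In Pbrm1 mutants against wild type it ran from 0 to 1 with single arrays left out, and was 1 without the Pbrm1 mutant arrays of description number 1. In double mutants against wild type it was 7, fell to 4 with arrays averaged per description number or without the wild-type arrays of number 1 or the double mutant arrays of either number, and ran from 4 to 6 with single arrays left out. Between double and Vhl mutants it was 2. It was 4 with no block; 0 with arrays averaged per number, with no trend in the prior variance, without the double mutant arrays of number 1 and without the 3 arrays of raised fat markers, an alternative chosen after seeing the data; and 1 with double mutant replicates 2 and 3 averaged, without the Vhl mutant arrays of number 1 or without the double mutant array of number 2. With single arrays left out it ran from 1 to 5. Between double and Pbrm1 mutants it was 5, and 3 without the double mutant arrays of number 1. For the interaction it was 0; it was 2 with no block or without the wild-type arrays of number 2, 1 without the Vhl mutant arrays of either number, 3 without the Pbrm1 mutant arrays of number 1, and 0 to 3 with single arrays left out, the 3 without Pbrm1 mutant replicate 2 and 1 each without wild-type replicate 3 or Vhl mutant replicate 1. Without double mutant number 1 only 1 array is left, assumed to vary like other groups.

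Over all genes, averaging arrays per number left 246 genes called of 851 in Vhl mutants against wild type, 274 of 895 in Pbrm1 mutants, 1729 of 2706 in double mutants, 710 of 1408 for double against Vhl, 1398 of 2260 for double against Pbrm1, 916 of 1656 for Vhl against Pbrm1 mutants and 99 of 583 for the interaction. Single arrays moving such a count by over 1.5 times were wild-type replicate 1 (545) and Vhl mutant replicate 3 (564), both for Vhl mutants against wild type. Without the 3 arrays of raised fat markers the counts were 564 for Vhl and 501 for Pbrm1 mutants against wild type, 830 for double against Vhl mutants and 303 for the interaction. Leaving out the arrays of 1 number gave counts as low as 236 for the interaction and as high as 988, and 349 for Pbrm1 mutants, 369 for Vhl mutants and 1212 for double mutants against wild type. The interaction had 884 calls with no block and 337 with no trend. Centring each array on its median turned the split of higher and lower genes from 453 and 398 to 355 and 622 in Vhl mutants against wild type, from 1513 and 747 to 1193 and 1079 for double against Pbrm1 mutants, and from 1045 and 611 to 788 and 1017 for Vhl against Pbrm1 mutants. Quantile normalization turned it from 842 and 566 to 719 and 779 for double against Vhl mutants and from 394 and 189 to 296 and 275 for the interaction. The cause was not tested. With 4 arrays per group the median SE was 0.11, and what passed depended on each gene's own SE as well as on size. Slc12a1 did not pass at -0.27 ± 0.09 in Pbrm1 mutants or -0.21 ± 0.09 in double mutants against wild type. Egf passed at -0.20 ± 0.05 in double against Vhl mutants.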
